A study of Mus musculus with 10 samples.

Results

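The genes of bile acid synthesis and of its control by the farnesoid X receptor (FXR) were examined in mouse liver after knockdown of Mboat7. They are 10 genes chosen by name from the 24411 genes of the count table, namely the synthesis enzymes Cyp7a1, Cyp8b1, Cyp27a1 and Cyp7b1, the conjugation enzymes Slc27a5 and Baat, the receptor Nr1h4 (FXR) with its target Nr0b2, and the hormone receptor Fgfr4 with its co-receptor Klb. All 10 reached 1 CPM (a gene's count as a share of its library, scaled to a fixed total) in some library and entered the test. Male C57BL/6 mice (C57Bl6/J in the strain label), 8 weeks old at the start and all on a high fat diet, were injected with 12.5 mg/kg of antisense oligonucleotide (ASO) for 20 weeks, and the 10 liver libraries are 5 of a non-targeting Control ASO (replicates 1 to 5) and 5 of Mboat7 ASO (replicates 6 to 10). An ASO is a short modified strand that directs the destruction of a matching RNA, and Mboat7 encodes an acyltransferase that attaches arachidonic acid to lysophosphatidylinositol. The study had 2 such oligonucleotides against Mboat7, and the labels leave out which was given here. An injected ASO is not confined to hepatocytes. The tissue label reads normal liver for all Control ASO samples, and severe fatty liver for those given Mboat7 ASO.

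The liver turns cholesterol into bile acids, detergents that are secreted into bile to absorb fat and are then recovered by the gut. The classical pathway begins with Cyp7a1 and the alternative pathway with Cyp27a1 and Cyp7b1, and both end with the coupling of the bile acid to taurine or glycine. Returning bile acids switch on FXR, which induces the repressor SHP (Nr0b2) in the liver and the hormone FGF15 in the gut, and both signals restrain Cyp7a1 and Cyp8b1, the hormone through Fgfr4 and Klb.

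RNA from whole liver was sequenced as 50 bp reads, and gene counts summed to between 25153235 and 28791798 per library. Counts of Mboat7 were 951 to 1105 under Control ASO and 60 to 130 under Mboat7 ASO (log2 fold change -3.63 ± 0.17, edgeR adjusted p = 1.29e-06). Of 12 hepatocyte markers 11 entered the test, led by Alb with means of 99758 and 71714 CPM. Ass1 had only 32 and 16 counts over the 5 libraries of each group, and why it had so few was not tested. The 12 pan-leukocyte markers were all higher in Mboat7 ASO livers, beside 21.2% higher and 17.3% lower over all genes tested. They summed to 122 to 206 CPM (scaled by upper quartile normalization) in Control ASO and 197 to 548 CPM in Mboat7 ASO libraries. The highest control was replicate 2 and the lowest knockdown library replicate 9. In whole liver, fewer cells of a type and less RNA per cell cannot be told apart.

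Several genes of this pathway fell and none rose. Of the 10, 5 were lower in Mboat7 ASO livers (Fgfr4, Slc27a5, Cyp27a1, Cyp8b1 and Baat), and the median log2 fold change over all 10 was -0.35, against 0.0098 over all genes tested. Over the transcriptome 38.5% of 12609 genes passed the edgeR quasi-likelihood test at a false discovery rate of 0.05, with 17.3% lower and 21.2% higher. The share of these calls that were higher was 55.0%, and 85.9% with no normalization factor, a setting that moved the median gene to 0.17 and under which 3 of the 5 genes remained lower (Fgfr4, Slc27a5 and Cyp27a1). The count of 10 that rose was also 0 by DESeq2, by limma-voom and at an unadjusted edgeR p under 0.05. The differences were modest, and none of the 5 genes that fell did so by more than 2-fold. The plot of single libraries shows how narrow the spread was for Fgfr4 and how wide for Cyp7a1.

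**Figure D1:**
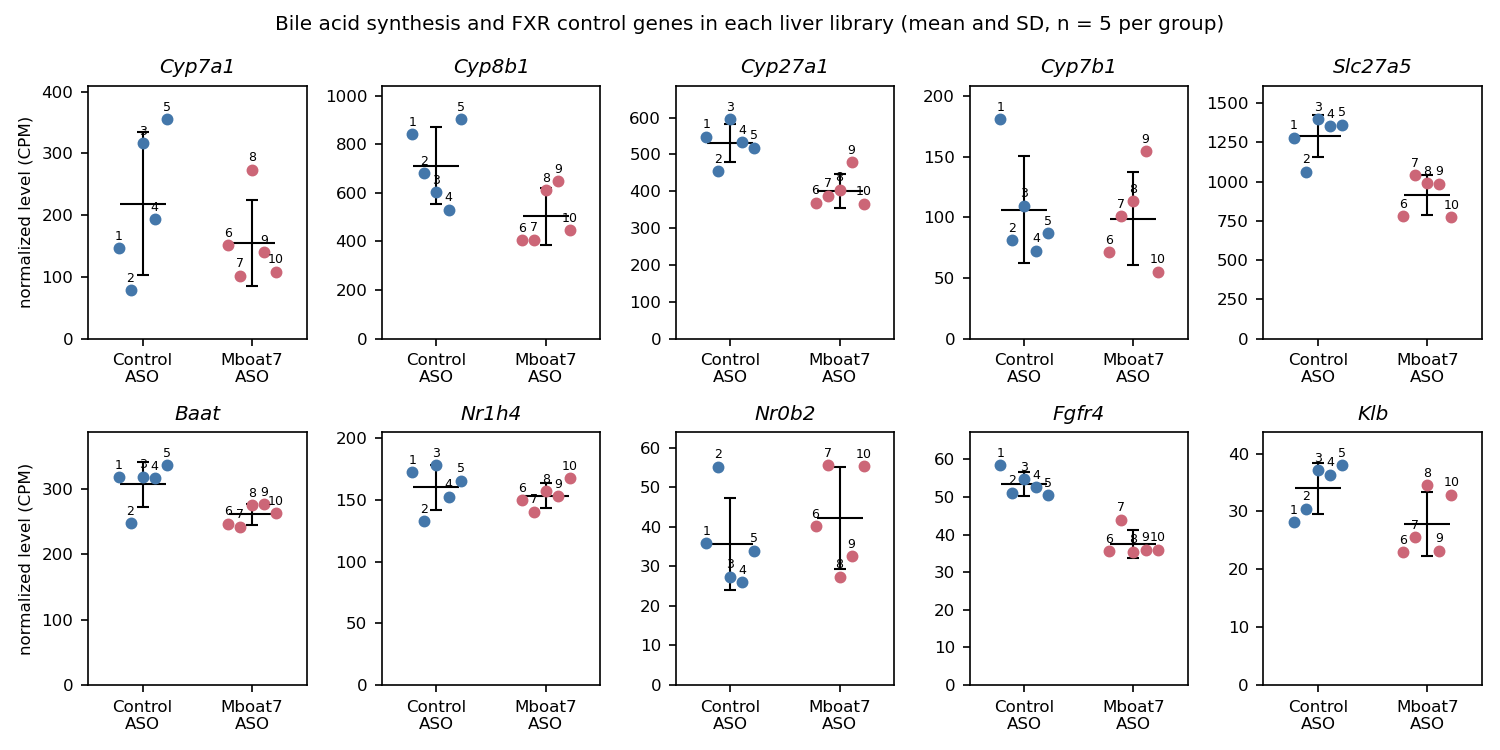
Normalized level in CPM (vertical axes, from 0) of each of the 10 genes in the 5 Control ASO (blue, replicates 1 to 5) and 5 Mboat7 ASO (red, replicates 6 to 10) libraries. Bars give the mean and SD of each group, and the points of both groups are fully apart for Slc27a5 and Fgfr4 only.

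Fgfr4, the receptor through which the gut hormone FGF15 reaches the hepatocyte, showed the most uniform fall. It stood at 58.4, 51.2, 54.8, 52.7 and 50.4 CPM in Control ASO replicates 1 to 5 and at 35.6, 44.0, 35.5, 36.0 and 36.0 CPM in Mboat7 ASO replicates 6 to 10. Every knockdown library lay below every control library, with replicate 7 closest to them. The log2 fold change was -0.52 ± 0.07 (standard error, edgeR adjusted p = 0.00175), and the mean level fell by 30.1%. The groups failed to overlap in 2 of the 10 genes, both lower in Mboat7 ASO livers, where 10.7% of all genes tested lay fully lower and 21.2% lay apart in either direction. Fgfr4 lies on chromosome 13, 55152640 to 55168759, plus strand (GRCm38, GENCODE). Klb, the co-receptor that Fgfr4 needs to bind FGF15, did not pass the test, at 34.0 ± 4.42 CPM in Control ASO and 27.8 ± 5.47 CPM in Mboat7 ASO (SD, n = 5 per group). Its log2 fold change was -0.29 ± 0.13 (edgeR adjusted p = 0.104, 95% interval -0.58 to 0.0026). In 1 of 10 fits that left out a single library Klb passed, at -0.38 without Mboat7 ASO replicate 8 (edgeR adjusted p = 0.0456). Replicate 8 had the highest Klb level of its group, so leaving it out had to deepen the fall. The Klb to Fgfr4 count ratio ranged from 0.482 to 0.753 in Control ASO and from 0.582 to 0.973 in Mboat7 ASO libraries, and the groups overlapped (2-sided exact permutation p = 0.278, adjusted p = 0.746 over 6 ratios).

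Slc27a5, the bile acyl-CoA synthetase that activates bile acids before conjugation, was the most abundant of the 10 genes per length and also fell in every knockdown liver. It was at 1280, 1063, 1400.3, 1354 and 1364 CPM in Control ASO replicates 1 to 5. In Mboat7 ASO replicates 6 to 10 it stood at 779, 1042, 992, 988 and 776 CPM. The highest knockdown library, replicate 7, lay just below the lowest control, replicate 2. The log2 fold change was -0.50 ± 0.11 (edgeR adjusted p = 0.00594). The gene lies on chromosome 7, 12988346 to 12998192, minus strand.

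Baat, the acyltransferase that joins the activated bile acid to its amino acid, fell by less and less firmly. Its Control ASO levels were 318, 247, 318, 316 and 336 CPM, and its Mboat7 ASO levels were 246, 242, 275, 276 and 263 CPM. Control replicate 2 sat among the knockdown libraries, and the other controls lay above all of them. The log2 fold change was -0.24 ± 0.08 (edgeR adjusted p = 0.0429). The call was lost in 8 of 10 fits that left out a single library (edgeR adjusted p of up to 0.0931), while the log2 fold change stayed between -0.30 and -0.20, and the call rested on all libraries but Control ASO replicate 2 and Mboat7 ASO replicate 9. Within a library, Baat counts were 0.237 ± 0.00914 of Slc27a5 counts in Control ASO and 0.289 ± 0.0409 in Mboat7 ASO (SD, n = 5 per group). This ratio of the final to the preceding step was above the whole control range of 0.227 to 0.248 in Mboat7 ASO replicates 6, 8, 9 and 10 and within it, at 0.232, in replicate 7. The difference of 0.27 on the log2 scale had a 2-sided exact permutation p of 0.0397 and did not pass once adjusted over 6 ratios (0.238).

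Cyp27a1, a mitochondrial sterol hydroxylase that opens the alternative pathway and oxidizes the side chain in both, fell. It was at 549, 454, 597, 533 and 519 CPM in Control ASO replicates 1 to 5 and at 369, 388, 405, 479 and 367 CPM in Mboat7 ASO replicates 6 to 10. Of the knockdown libraries 4 lay below all controls, and replicate 9 lay within the control range. The log2 fold change was -0.40 ± 0.09 (edgeR adjusted p = 0.00722). The gene lies on chromosome 1, 74713574 to 74737892, plus strand. Cyp7b1, the next hydroxylase of the alternative pathway, varied widely and did not pass, from 72.6 to 181 CPM in Control ASO and from 55.3 to 155 CPM in Mboat7 ASO livers. Its log2 fold change was -0.10 ± 0.30, with a 95% interval of -0.76 to 0.56, and lay above 0 with no normalization factor, with the gene-length trend removed, without Control ASO replicate 1 and without Mboat7 ASO replicate 10.

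Cyp8b1, the hydroxylase that directs the classical pathway to cholic acid, was lower, on the border of the threshold. Its Control ASO levels were 843, 682, 602, 530.3 and 905 CPM, and its Mboat7 ASO levels were 405, 407, 611, 649 and 447 CPM. Mboat7 ASO replicates 6, 7 and 10 lay below every control, whereas replicates 8 and 9 lay within the control range. The log2 fold change was -0.50 ± 0.18 (edgeR adjusted p = 0.0469). The call was lost in 7 of 10 fits that left out a single library (edgeR adjusted p of up to 0.107), namely replicate 1, 2, 3 or 5 of Control ASO and replicate 6, 7 or 10 of Mboat7 ASO. Its log2 fold change stayed between -0.61 and -0.40 in all 10 of those fits. Cyp8b1 is a gene of a single exon on chromosome 9, 121914356 to 121916305, minus strand.

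Cyp7a1, the rate-limiting enzyme of the classical pathway, had a log2 fold change close to that of Slc27a5 but did not pass, and single livers differed far more. It was at 147, 78.7, 317, 193 and 356 CPM in Control ASO replicates 1 to 5 and at 151, 102, 273, 140.2 and 108 CPM in Mboat7 ASO replicates 6 to 10. All knockdown libraries lay within the control range, which spanned 4.52-fold. The log2 fold change was -0.49 ± 0.39 (edgeR adjusted p = 0.333), and its 95% interval of -1.35 to 0.36 holds both a fall of over 2-fold and a modest rise. The value moved from -0.25 without Control ASO replicate 5 to -0.80 without Mboat7 ASO replicate 8, and was called in none of 20 alternatives. Against Cyp7a1, counts of Cyp8b1, Cyp7b1 and Cyp27a1 gave ratios that did not differ between the groups by more than their spread (2-sided exact permutation p of 0.810, 0.571 and 0.984, or 0.971, 0.857 and 0.984 adjusted over 6 ratios). The Cyp8b1 to Cyp7a1 ratio spanned 1.90 to 8.67 in Control ASO and 2.23 to 4.63 in Mboat7 ASO libraries. The plot of group differences sets the wide interval of Cyp7a1 beside the narrow ones of Fgfr4 and Cyp27a1.

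**Figure D2:**
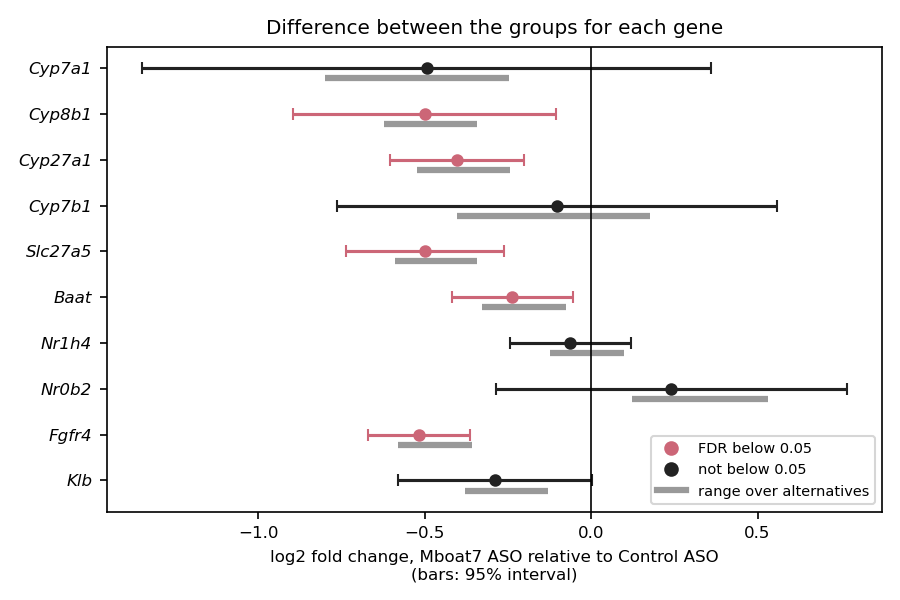
Log2 fold change of Mboat7 ASO relative to Control ASO (horizontal axis) for each gene, with its 95% interval, in red where the edgeR false discovery rate was below 0.05. Gray bars span the values under 20 alternative fits, and those of Fgfr4, Slc27a5, Cyp27a1, Cyp8b1, Baat, Cyp7a1 and Klb stay below 0.

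Nr1h4, which encodes FXR itself, was even across livers and did not pass, at 160.2 ± 18.1 CPM in Control ASO and 153 ± 9.93 CPM in Mboat7 ASO (log2 fold change -0.06 ± 0.08, 95% interval -0.24 to 0.12). Its value was above 0 once the gene-length trend was removed (0.06) and with no normalization factor (0.10). Nr0b2, the FXR target that encodes the repressor SHP, was at 35.8, 55.3, 27.4, 26.1 and 34.0 CPM in Control ASO replicates 1 to 5. In Mboat7 ASO replicates 6 to 10 it stood at 40.2, 55.5, 27.4, 32.6 and 55.3 CPM. High and low libraries occurred in both groups, and the log2 fold change of 0.24 ± 0.24 did not pass (edgeR adjusted p = 0.449, 95% interval -0.29 to 0.77). Nr0b2 counts were 0.231 ± 0.106 of Nr1h4 counts in Control ASO and 0.276 ± 0.0888 in Mboat7 ASO livers (2-sided exact permutation p = 0.373, adjusted p = 0.746 over 6 ratios).

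The promoter letters of Nr0b2 and Cyp8b1 are shown because LRH-1, the receptor that SHP silences at its target genes, binds a short core that both windows hold. RefSeq start sites (GRCm38.p6) were matched for 6 of the 10 genes (Cyp8b1, Cyp27a1, Nr1h4, Nr0b2, Fgfr4 and Klb), and the 250 bases before each were searched on both strands for CAAGGNCA (LRH-1), TCANTGA (the core of the FXR inverted repeat) and CAAAGNCCA (HNF4A). Matches are in capitals, 5′ to 3′ on the strand of the gene, for Nr0b2 at chr4:133553126-133553375 (plus strand) and Cyp8b1 at chr9:121916306-121916555 (minus strand).
Nr0b2: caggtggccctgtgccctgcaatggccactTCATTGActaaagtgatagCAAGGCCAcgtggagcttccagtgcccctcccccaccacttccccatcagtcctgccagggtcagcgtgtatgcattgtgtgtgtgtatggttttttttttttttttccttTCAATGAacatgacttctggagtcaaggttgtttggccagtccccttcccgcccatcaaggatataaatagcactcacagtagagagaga
Cyp8b1: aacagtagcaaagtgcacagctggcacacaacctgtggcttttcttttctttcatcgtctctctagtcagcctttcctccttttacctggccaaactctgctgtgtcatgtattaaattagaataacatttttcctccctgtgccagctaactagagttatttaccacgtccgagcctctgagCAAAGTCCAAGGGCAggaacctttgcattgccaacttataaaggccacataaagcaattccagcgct

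In Nr0b2 the LRH-1 letters run from position -201 to -194, counted from the start site, and the FXR core letters begin at -220 and at -90. In Cyp8b1 the HNF4A letters begin at -67 and the LRH-1 letters at -60, and they share the letters CA. Klb held the FXR core letters, and Cyp27a1, Nr1h4 and Fgfr4 held no match in this window. Of 32851 RefSeq promoter windows of the same length, 5.53% held CAAGGNCA, 5.93% TCANTGA and 1.70% CAAAGNCCA. These are matches of letters only, and binding was not measured.

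The 3 libraries with the most Nr0b2 (Mboat7 ASO replicates 7 and 10 and Control ASO replicate 2) were also the 3 with the least Cyp7a1. On log2 CPM over all 10 libraries, Pearson's r was -0.81 (permutation p = 0.00594, 0.0238 adjusted over 4 pairs) and Spearman's rho was -0.73 (permutation p = 0.0206, 0.0706 adjusted over 4 pairs). It was -0.79 with the group means removed, and -0.76 without the 2 libraries farthest from the median of Nr0b2 (Mboat7 ASO replicates 7 and 10). The 3 libraries stood apart, at 55.3 to 55.5 CPM of Nr0b2, from the other 7 at 26.1 to 40.2 CPM. Within the 7, r was -0.47 and rho -0.32 (exact permutation p = 0.265 and 0.498, or 0.734 and 0.882 adjusted over 4 pairs), still negative over a narrower range and in fewer libraries. The relation over all 10 thus draws much of its strength from 3 libraries, and was not shown among the rest. By Pearson's r, the pairs of Nr0b2 with Cyp27a1 (r = -0.62, permutation p = 0.0659), Cyp8b1 (r = -0.36) and Cyp7b1 (r = -0.36) did not pass over all 10. For Cyp27a1, Spearman's rho was -0.68 (permutation p = 0.0353, 0.0706 adjusted over 4 pairs), with the same adjusted p as for Cyp7a1. Pearson's r for Cyp27a1 was -0.70 with the group means removed, and -0.36 without Mboat7 ASO replicates 7 and 10. These pairs, and the split at the gap, were chosen after the counts had been seen.

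**Figure D3:**
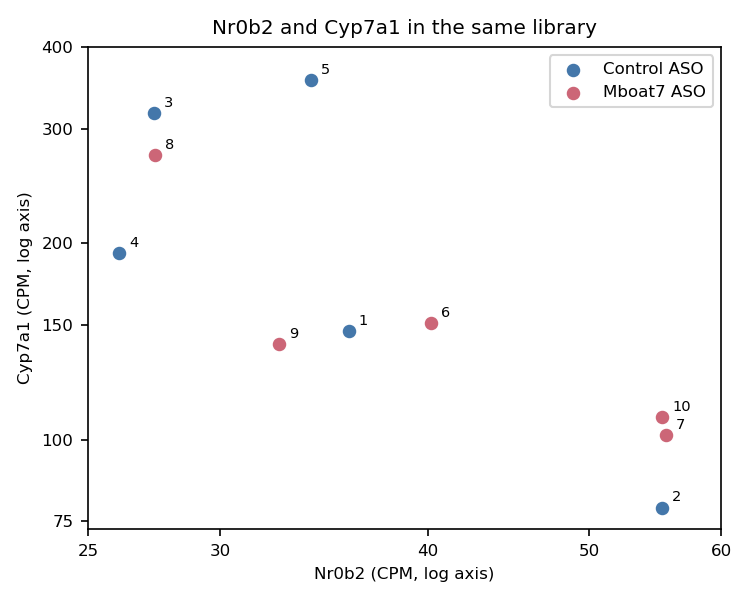
Nr0b2 (horizontal) against Cyp7a1 (vertical), both in CPM on log axes, in the 10 libraries, numbered by replicate, with Control ASO in blue and Mboat7 ASO in red. Replicates 2, 7 and 10 lie apart at the lower right, at 55.3 to 55.5 CPM of Nr0b2, and the other 7 libraries spread over the left.

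The genes differed widely in how much they varied between livers of a group. Within Control ASO, the coefficient of variation was 53.2% for Cyp7a1, 41.5% for Cyp7b1 and 32.7% for Nr0b2, against a median of 11.5% over the genes tested. Within Mboat7 ASO the same genes stood at 44.8%, 39.1% and 30.6%, against 9.96%. Cyp7a1, Cyp7b1 and Nr0b2 were thus above 85.6% of all genes in both groups. The smallest values were those of Fgfr4 in Control ASO (6.01%) and of Baat (6.13%) and Nr1h4 (6.47%) in Mboat7 ASO. Control ASO replicate 2 stood apart, with the lowest control level of 5 genes (Cyp7a1, Cyp27a1, Slc27a5, Baat and Nr1h4) and the highest of Nr0b2, and it was also the control with most leukocyte marker RNA. Without it and Mboat7 ASO replicate 9, a choice made with earlier results known, 5 of the 10 genes were lower and 0 higher. In that fit 3038 genes were higher and 2200 lower over all genes. Replicate 9 was the highest knockdown library in Cyp8b1, Cyp27a1, Cyp7b1 and Baat. Leaving out libraries that lay nearest the other group widens such falls, so this count adds no support.

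Per kilobase of exon, the genes were ordered in Control ASO livers as Slc27a5 (530.1 CPM per kb), Cyp8b1 (365), Cyp27a1 (244), Baat (158), Nr1h4 (69.6), Cyp7a1 (52.3), Cyp7b1 (49.1), Nr0b2 (31.6), Fgfr4 (15.1) and Klb (7.47). The order from Slc27a5 down to Nr1h4, and that from Nr0b2 to Fgfr4 and Klb, held in all 10 libraries. Nr1h4 was above Cyp7a1 in 9 of 10. The order of Cyp7a1 and Cyp7b1 held in 6 of 10 and that of Cyp7b1 and Nr0b2 in 6 of 10, so these neighbours were not separated beyond their spread. Slc27a5 ranked 87th per length among 12161 genes and Klb 3888th. Mean levels in Mboat7 ASO livers kept the same order apart from the middle, where Cyp7b1 (45.7), Nr0b2 (37.3) and Cyp7a1 (37.1) followed Nr1h4 (66.6).

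**Figure D4:**
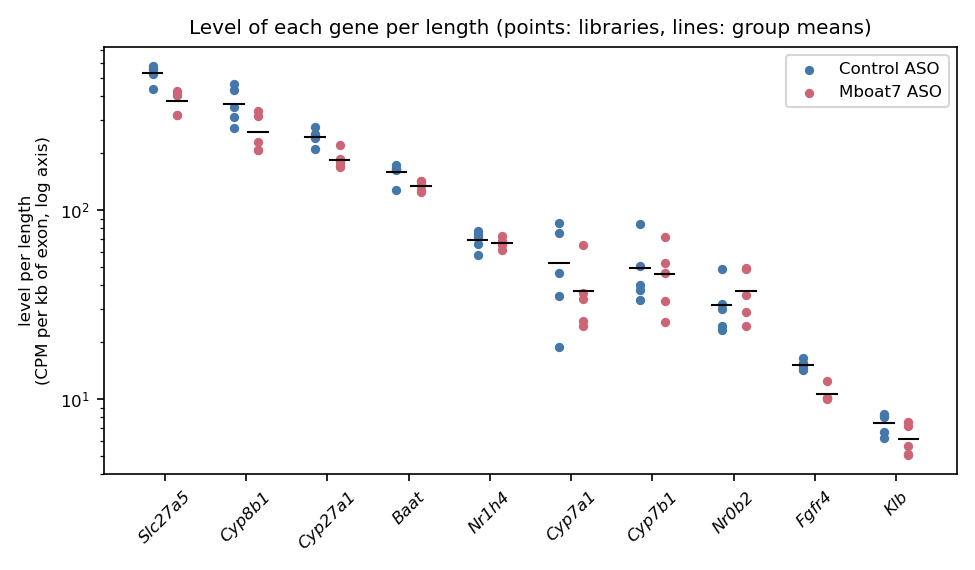
Level in CPM per kilobase of exon (vertical, log axis) of the 10 genes, ordered by their Control ASO mean, with 1 point per library and a line at each group mean. The genes span from 530.1 (Slc27a5) to 7.47 (Klb) in Control ASO livers, and Cyp7a1, Cyp7b1 and Nr0b2 overlap.

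Of the remaining enzymes of bile acid synthesis some also fell, beside 17.3% lower and 21.2% higher over all genes. Of 17 listed, 16 were tested, 6 fell, 0 rose in edgeR (1 at unadjusted p under 0.05, 0 by both DESeq2 and limma-voom), and the median log2 fold change was -0.27. Cyp2c70, which makes the muricholic acids of mice, went from 317 to 155 CPM (-1.04 ± 0.18, edgeR adjusted p = 0.0031), and it belongs to the large Cyp2c family, between whose copies reads could be split. Its lowest control library was at 248 CPM and its highest knockdown library at 197 CPM. Fdx1 and Fdxr, the ferredoxin and its reductase that pass electrons to mitochondrial P450s such as Cyp27a1, both fell (-0.41 ± 0.12 and -0.29 ± 0.07). Hsd3b7 (-0.38 ± 0.10) and Akr1d1 (-0.64 ± 0.18), which remodel the sterol ring, fell, as did Acox2 (-0.25 ± 0.07), a peroxisomal oxidase of the side chain. The values of Scp2 (0.19 ± 0.08), a peroxisomal thiolase, and Slc27a2 (-0.16 ± 0.08), a very long chain acyl-CoA synthetase, did not pass. With no normalization factor 2 of these enzymes were lower (Cyp2c70 and Akr1d1) and 2 higher, beside 769 lower and 4672 higher of all 12609 genes tested. With the gene-length trend removed the call of Hsd3b7 was lost (edgeR adjusted p = 0.0501).

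Of 10 tested partners of FXR and regulators of Cyp7a1 or Cyp8b1, 2 rose and 1 fell, with a median of 0.07, and 4 rose and 0 fell with no normalization factor. The main counts are no higher than the shares over all genes, 21.2% higher and 17.3% lower. With no normalization factor, 4672 of the 12609 genes tested were higher and 769 lower. Ncor1 (0.33 ± 0.09), a corepressor of nuclear receptors, and Ncoa1 (0.31 ± 0.07), a coactivator, rose, and Mafg (-0.32 ± 0.08), a repressor of Cyp8b1 that FXR induces, fell. The call of Ncor1 was lost with the gene-length trend removed (0.18, edgeR adjusted p = 0.131). Rxra (-0.01 ± 0.05), the partner with which FXR binds DNA, and Hnf4a (0.05 ± 0.13) did not pass. Nr5a2, which encodes LRH-1, was at 0.09 ± 0.09.

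Of 8 listed targets of FXR, 6 were tested, 3 fell and 1 rose, with a median of -0.24, beside 17.3% lower and 21.2% higher over all genes. Abcb11, the bile salt export pump, fell (-0.33 ± 0.08, 484 to 578 CPM in Control ASO and 378 to 459 CPM in Mboat7 ASO), whereas Abcb4, the phospholipid export pump beside it in the canalicular membrane, rose (0.35 ± 0.10, 297 to 405 and 397 to 497 CPM). The call of Abcb4 was lost with the gene-length trend removed, and that of Abcb11 with no normalization factor (-0.17, edgeR adjusted p = 0.0819). Fetub (-0.84 ± 0.13) and Apoc2 (-0.49 ± 0.09), which encodes an activator of lipoprotein lipase, fell. Apoc2 was counted at a low level, with means of 10.1 CPM in Control ASO and 7.22 CPM in Mboat7 ASO. Sdc1 (-0.15 ± 0.08) and Pltp (0.40 ± 0.25) did not pass.

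In the signalling list of the hormone receptor, 13 of 15 genes were tested, 2 rose and 1 fell (median 0.06), and 5 rose and 1 fell with no normalization factor. The main counts lie below the shares over all genes, 21.2% higher and 17.3% lower. Those with no normalization factor stand beside 4672 higher and 769 lower of all 12609 genes tested. Fgf15 itself, made in the gut, had 0 counts in all libraries, a limit of 3 counts in each. Ptpn11 (0.31 ± 0.05), a phosphatase that relays the FGFR4 signal, and Frs2 (0.28 ± 0.08), the adaptor of the receptor, rose, and the call of Frs2 was lost with the gene-length trend removed (0.18, edgeR adjusted p = 0.104). Fgfr3, another FGF receptor, fell (-0.51 ± 0.09), close to the value of Fgfr4. Dusp6 (0.13 ± 0.14), a phosphatase induced by this signal, did not pass. The lowest value of the list was that of Spry4 (-0.60 ± 0.27, edgeR adjusted p = 0.0927), which also did not pass. Once replicates 2 and 9 were left out, 4 of these genes rose and 2 fell, Fgfr3 and Spry4 (-0.97, edgeR adjusted p = 0.00471). Over all genes, 3038 were then higher and 2200 lower. Replicate 2 was the lowest control in Spry4 (10.6 CPM) and replicate 9 the highest knockdown library (18.2 CPM). Leaving both out had to widen the gap, so this pass of Spry4 adds no support.

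**Figure D5:**
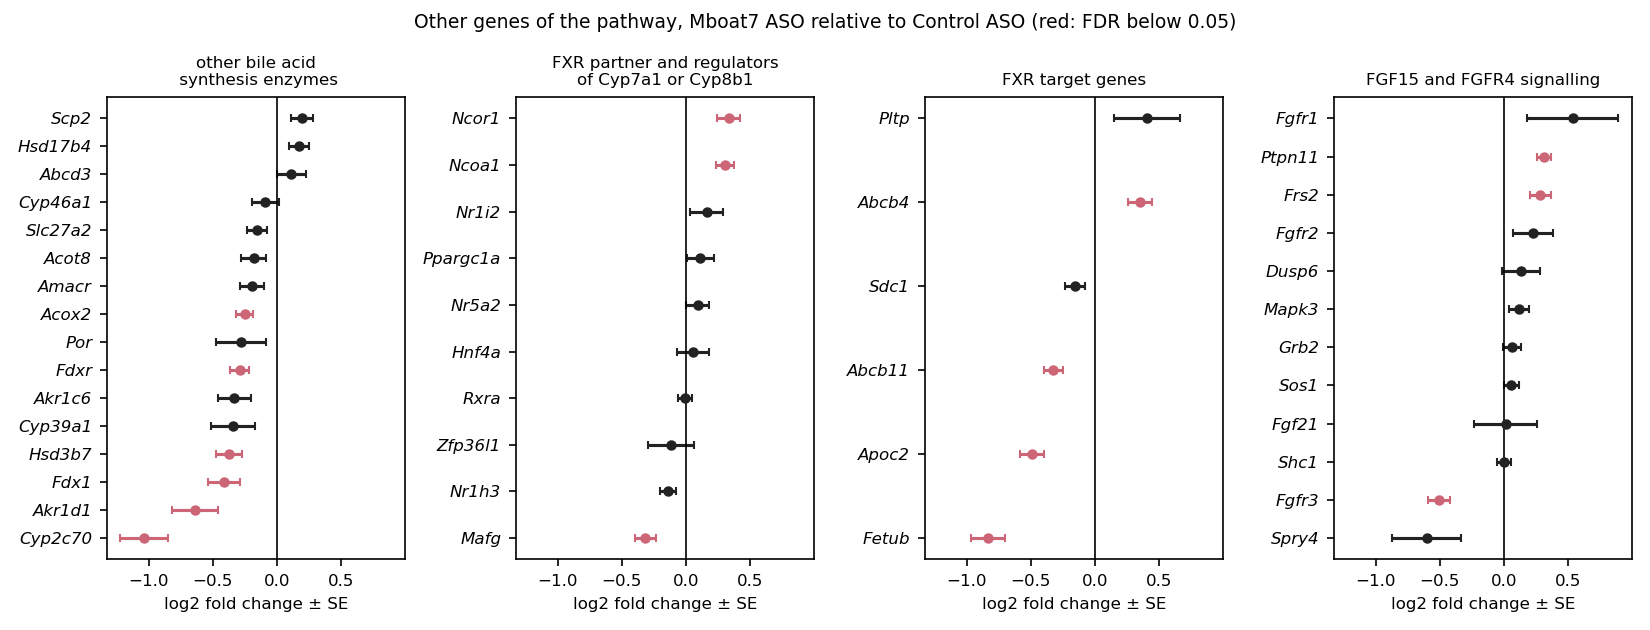
Log2 fold change of Mboat7 ASO relative to Control ASO with its standard error (horizontal axes) for the tested genes of the lists of other synthesis enzymes, FXR partners and regulators, FXR targets and FGF15 signalling (the last without 1 gene not reported here), in red where the edgeR false discovery rate was below 0.05. Of the 16 other synthesis enzymes 6 were lower, with Cyp2c70 at -1.04.

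Other hepatocyte genes moved too, and their part in these results was not tested. Of 11 hepatocyte markers tested, 5 fell and 1 rose, with a median of -0.20, beside 17.3% lower and 21.2% higher over all genes. Their summed level was 145532 to 163562 CPM in Control ASO and 105061 to 147485 CPM in Mboat7 ASO libraries. Mboat7 ASO replicate 7 was the highest of its group in this sum, most of it from Alb, and in Fgfr4, Slc27a5 and Nr0b2. It was the lowest of its group in Cyp7a1, Baat and Nr1h4. Of the 10 cholangiocyte markers 6 were tested, and Krt19, Krt7 and Epcam, which define bile duct cells, averaged 0.590 to 1.02 CPM in each group and did not pass, whereas Spp1, which other cells also express, rose (1.18 ± 0.28). The summed level of the cholangiocyte markers, most of it from Spp1, was 39.2 to 89.3 CPM in Control ASO and 82.6 to 179.9 CPM in Mboat7 ASO libraries. The trend of the log2 fold change with transcript length lay between -0.20 (Nr0b2) and 0.0038 (Klb) at the lengths of the 10 genes. With that trend removed, Fgfr4, Slc27a5 and Cyp27a1 were still lower and Cyp8b1 (-0.36, edgeR adjusted p = 0.150) and Baat (-0.09, edgeR adjusted p = 0.422) were not.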

How the data were processed

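The authors trimmed single-end reads of 50 bp (Trim Galore 0.3.3, FastQC 0.11.3), aligned them to mm10 with STAR and counted reads per gene, as their methods and processing notes state. The deposited values are raw counts, not normalized, and the strand used in counting is not stated. No annotated exon overlaps those of the 10 genes. The other 10 columns of the table match no sample and were not used.

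Genes with at least 1 CPM in at least 1 library were kept (12609 of 24411), normalized by upper quartile and tested with edgeR 4.0.16 (quasi-likelihood, R 4.3.3) at a Benjamini-Hochberg FDR of 0.05 over all genes kept, without covariates. CPM are normalized. Standard errors are the log2 fold change over the square root of F. Ratios used raw counts with 0.5 added, 2-sided exact permutation over 252 assignments (smallest p 0.00794) and adjustment over 6. Correlations used 1e+05 permutations, or all of them over 7 libraries. Exon lengths and coordinates came from GENCODE on GRCm38 (the same assembly as mm10), matched for 96.4% of genes kept. The steps were tested on simulated data. Alternatives used DESeq2 1.42.0, limma-voom 3.58.1, other normalizations, filters and thresholds, removal of the length trend, or fewer libraries. Genes named are the 10, Mboat7, and from each list those called, plus up to 2 of highest level not called. Others (Nr5a2, Spry4, Alb, Ass1, Krt19, Krt7, Epcam, Spp1) were chosen after their values were seen. One gene of the signalling list is counted but not reported here. The 10 genes and the lists were chosen with earlier results of these data known. The sources describe treated mice and number the libraries without stating that each is a separate mouse. Libraries of a group differed well beyond counting noise (pairs gave a chi-square of 20.1 to 79.2 for each degree of freedom). The p-values of group differences set the difference between the groups against that spread.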

Additional observations from a re-analysis of the deposited data

Results flagged for a closer look

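In 4 of 32 groups of 5 values (the 10 genes and 6 ratios in each ASO group), 1 library lay far from the rest by Dixon's criterion, which chance meets in about 1 of 20 groups. Cyp7a1 was at 273 CPM in Mboat7 ASO replicate 8 and at 102 to 151 CPM in the other knockdown libraries. Baat was at 247 CPM in Control ASO replicate 2 and at 316 to 336 CPM in the other controls. Fgfr4 was at 44.0 CPM in Mboat7 ASO replicate 7 and at 35.5 to 36.0 CPM in the others. The Nr0b2 to Nr1h4 count ratio was 0.417 in Control ASO replicate 2 and 0.154 to 0.208 in the other controls. Without the library concerned, the log2 fold change was -0.80 for Cyp7a1 (edgeR adjusted p = 0.124), -0.30 for Baat (edgeR adjusted p = 0.00357) and -0.58 for Fgfr4 (edgeR adjusted p = 0.00111). Without Control ASO replicate 2, the log2 difference of the ratio was 0.53 (2-sided exact permutation, adjusted p = 0.214). Each of these libraries lay on the side of its group nearer the other group. Leaving it out had to widen the difference, so these fits add no support.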

How the results depend on the processing

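Fgfr4, Slc27a5, Cyp27a1, Cyp8b1 and Baat had values below 0 in all 20 alternative fits, and passed the test in 20, 20, 20, 10 and 9 of them. The values of Cyp7a1 and Klb were also below 0 in all 20, and passed in 0 and 1 of them. The number of the 10 genes called lower was 5, and 3 with no normalization factor, with no filter on low counts, with the gene-length trend removed and at an FDR of 0.01, and 0 when more than 2-fold was required. It was 3 to 5 when single libraries were left out. Over all genes, 4672 were higher and 769 lower with no normalization factor, 811 and 84 at more than 2-fold, and 1277 and 995 at an FDR of 0.01, against 2667 and 2184. The Baat to Slc27a5 difference was 0.21 to 0.35 with single libraries left out and passed without Mboat7 ASO replicate 7 (2-sided exact permutation, adjusted p = 0.0476). Replicate 7 was the only knockdown library within the control range. Leaving it out separated the groups fully, which gives the smallest p possible, so this pass adds no support. The cause of these changes was not tested. No paired analysis was possible because the groups share no replicate number. A single count corresponded to 0.0347 to 0.0398 CPM, depending on the library.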
